A study of Mus musculus with 12 samples.

Results

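The mouse mitochondrial chromosome carries 37 of the 50674 genes in the count table, and these 37 rows were taken by their chromosome label, with no use of their values. They comprise 13 protein-coding genes, 2 ribosomal RNA genes and 22 transfer RNA genes. RNA was sequenced from natural killer (NK) cells that had been expanded from the spleens of C57BL/6 mice in IL-2, a cytokine that sustains NK cell growth. Wild-type cells and cells homozygous for loss of Mirc11, a microRNA cluster (Mirc11-/-), were each sampled untreated and after 6 h of stimulation through NKG2D, an activating receptor of NK cells. Each of these 4 groups had 3 libraries, which the series text calls biological replicates, and all 12 shared the IL-2 culture, so unstimulated here means cultured in IL-2 with no NKG2D stimulation. The labels give no age, do not say how the Mirc11 loss was made, and do not say whether cells of several animals were pooled.

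Mitochondrial DNA is read from both strands into long RNAs that are cut apart, mostly at the tRNAs that lie between the other genes. The mRNAs encode core subunits of respiratory complexes I, III, IV and V, and the rRNAs form the mitochondrial ribosome that translates only these mRNAs. Most mitochondrial mRNAs end in a poly(A) tail, the rRNAs in a short one, and mature tRNAs in none, which bears on libraries that were made from poly(A) RNA as these were. NK cells depend on respiration for growth in IL-2 and for sustained effector function.

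The 13 coding genes and 2 rRNA genes passed the filter on low counts, and no tRNA gene did. On the GRCm38 build, with positions from GENCODE vM21, mt-Rnr1 lies at bases 70 to 1024 and mt-Rnr2 at 1094 to 2675 of the mitochondrial chromosome. The coding genes run from mt-Nd1 at 2751 to mt-Cytb ending at 15288. Of the coding genes only mt-Nd6 (13552 to 14070) lies on the minus strand, together with 8 of the tRNA genes. Genes overlap in places: mt-Atp8 and mt-Atp6 share 43 bases, mt-Nd4l and mt-Nd4 share 7, and mt-Nd5 and mt-Nd6 share 14 on opposite strands. Whether the counting used strand is not stated in the labels, and reads of mt-Nd6 and reads from the opposite strand of the same bases cannot be told apart.

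A block of nuclear sequence on chromosome 1 holds 7 annotated pseudogenes that match 7 of the coding genes almost base for base, so many reads from these genes fit 2 places. The block spans bases 24611535 to 24616197 of the minus strand. The ends of the 2 copies that took the most counts are set below against the mitochondrial genes they match, with capitals marking the only bases that the gene has beyond the annotated copy. All sequences are transcript sequences of GENCODE vM21, written 5′ to 3′.
mt-Co2, last 30 bases: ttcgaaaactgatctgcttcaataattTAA
Gm28661, last 27 bases: ttcgaaaactgatctgcttcaataatt
mt-Atp6, last 30 bases: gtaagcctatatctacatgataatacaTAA
Gm10925, last 27 bases: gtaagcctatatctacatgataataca
Both copies were identical to the gene over their whole length, 681 bases for Gm28661 and 678 bases for Gm10925. The next 2 pairs hold all the differences found between the 7 copies and the genes, marked in capitals.
mt-Co1, bases 1054 to 1083: ggTCtAAcCggaAttgttttatccaactca
Gm29216, bases 1 to 30: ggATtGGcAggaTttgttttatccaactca
mt-Nd3, bases 1 to 30: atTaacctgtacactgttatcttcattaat
Gm28438, bases 1 to 30: atCaacctgtacactgttatcttcattaat
Gm29216 differed from mt-Co1 at 6 of 492 bases, all within its first 30, and Gm28438 from mt-Nd3 at 1 of 345. Gm28437 (783 bases, mt-Co3), Gm10222 (294 bases, mt-Nd4l) and Gm28439 (876 bases, the first part of the 1378 bases of mt-Nd4) showed no difference. The last window shows where mt-Atp6 begins inside mt-Atp8, with the mt-Atp6 start codon in capitals.
mt-Atp8, bases 150 to 179: ttgagaattaaaATGaacgaaaatctattt
The coding genes mt-Nd1, mt-Nd2, mt-Atp8, mt-Nd5, mt-Nd6 and mt-Cytb and both rRNA genes had no such copy in the block. In all, 21 nuclear genes shared at least 1 stretch of 31 bases with a mitochondrial transcript.

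The counts of a gene and its copy were divided differently from library to library. For mt-Atp6, a subunit of the proton channel of ATP synthase, the copy Gm10925 held 95.9%, 96.2% and 97.7% of the pair's counts in the wild-type unstimulated libraries and 97.5%, 90.8% and 96.7% in the Mirc11-/- unstimulated libraries. In all 6 stimulated libraries Gm10925 had 0 counts, and the whole of the pair stood on mt-Atp6. A limit of 3 counts per library was taken for a count of 0. On it, the counts assigned to Gm10925 were at least 8469-fold lower in the stimulated than in the unstimulated wild-type group. In the Mirc11-/- group they were at least 9504-fold lower. These folds describe the assignment of reads. They set no limit on the level of the copy, which is identical to mt-Atp6 over its whole length. The other pairs were divided in other ways. Gm28661 took 99.3% to 100% of the mt-Co2 pair in unstimulated libraries and 68.4% to 100% in stimulated ones, where mt-Co2 encodes a catalytic subunit of complex IV. Gm29216 took 0% of the mt-Co1 pair in every unstimulated library and 0.349% to 5.79% in the stimulated ones. For mt-Nd4l the copy share ran from 28.9% to 82.6%, and for mt-Nd3 from 0.0258% to 59.6%. Gm28439 took at most 17.1% of the mt-Nd4 pair and Gm28437 at most 2.69% of the mt-Co3 pair. Where the copy took counts, the deposited value of the gene is only a part of the counts of the pair.

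**Figure D1:**
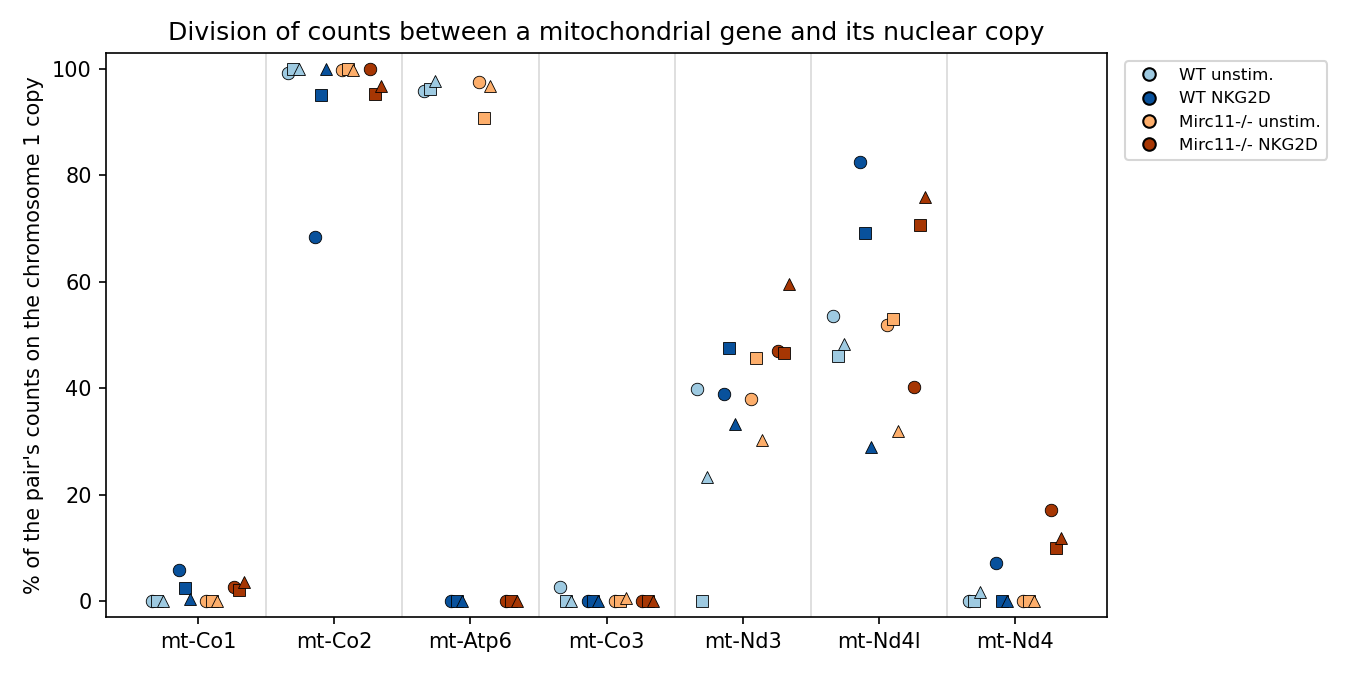
Share of each pair's counts (percent, vertical axis) that was assigned to the chromosome 1 copy, for 7 mitochondrial genes in genome order and 12 libraries (colour: group; circle, square and triangle: replicates 1, 2 and 3). The mt-Atp6 copy held 90.8% or more of the counts in the 6 unstimulated libraries and 0% in the 6 stimulated ones.

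As deposited, mt-Atp6 was therefore the member with the largest called change. Its level was 57.0, 50.5 and 29.8 CPM in the wild-type unstimulated libraries and 1961, 1634 and 1663 CPM in the wild-type stimulated ones, where CPM is the count divided by the library total (scaled by the TMM method) times 1000000. The log2 fold change (the stimulated minus the unstimulated mean on the log2 scale) was 5.26 ± 0.43 (SE, adjusted p = 1.21e-05, edgeR's quasi-likelihood test). With the counts of Gm10925 added, the same libraries read 1392, 1344 and 1286 CPM against 1961, 1634 and 1663 CPM, and the log2 fold change was 0.39 ± 0.12 (adjusted p = 0.0262, edgeR). In Mirc11-/- cells the deposited change of 4.58 ± 0.42 (adjusted p = 1.54e-05, edgeR) became 0.18 ± 0.12 (adjusted p = 0.234, edgeR). The sum is the level of the pair, since reads of the gene and of its copy cannot be told apart. The mt-Co2 estimate went from a deposited 5.85 ± 2.57 (adjusted p = 0.122, edgeR) in wild-type cells to 0.22 ± 0.11 for the pair (adjusted p = 0.146, edgeR).

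**Figure D2:**
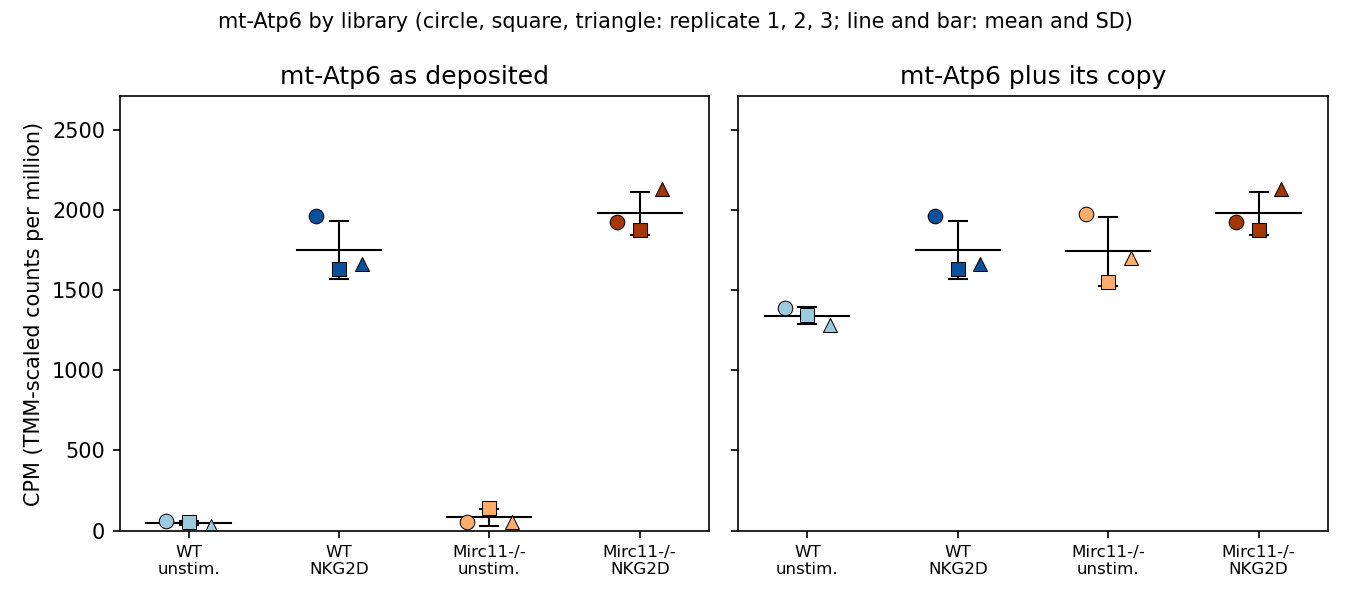
Level of mt-Atp6 (CPM) in each of the 12 libraries by group, as deposited on the left and with its copy added on the right; lines and bars give the mean and SD of 3 libraries. As deposited the unstimulated libraries sit at or below 143 CPM, and with the copy added they sit between 1286 and 1978 CPM.

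In what follows, "as deposited" means the counts of each row, and all other values are from counts in which the 7 copies were added to their genes, a choice made after the division above was seen. For the 8 members with no copy both give nearly the same value. Of these, mt-Atp8 shares 13 stretches of 31 bases with Gm10925, through its overlap with mt-Atp6. Its counts may thus also depend on how reads were divided, which the addition does not mend and which was not tested. A member was called when its adjusted p was under 0.05 in edgeR's quasi-likelihood test, with the adjustment made over all 17457 genes tested as deposited or all 17451 tested after the addition.

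The libraries held 15139281 to 25342991 counts in all. Markers of NK cells summed to 11719 to 14099 CPM in the unstimulated, 8594 to 9985 in the wild-type stimulated and 4991 to 7676 in the Mirc11-/- stimulated libraries, with all 12 markers detected in every group. Summed markers of other cells were 242 to 331 CPM for T cells (8 genes, mostly Trbc1), 57.1 to 128 for B cells (6 genes, mostly Ighm) and 76.5 to 207 for dendritic cells (7 genes, mostly Itgax). B cell markers were higher in every stimulated library (102 CPM or more) than in any unstimulated one (73.2 or less), and dendritic cell markers higher in every Mirc11-/- library (160 CPM or more) than in any wild-type one (131 or less), with Cd209a at 0 in 3 groups and Clec9a in 1. Macrophage markers (7 genes, mostly Cd68) summed to 3.41 to 5.68 CPM unstimulated and to 7.42 CPM or more stimulated, with Fcgr1 at 0 in both unstimulated groups and C1qa in the wild-type stimulated one. Neutrophil markers (7 genes, S100a9 and Retnlg at 0 in 3 groups) reached 4.17 CPM, and erythroid and platelet markers (6 genes, all 6 at 0 in unstimulated Mirc11-/- cells) 0.406. Summed counts of vomeronasal receptor genes, chemosensory receptors of the vomeronasal organ, moved with stimulation: 13.6 to 17.4 CPM in unstimulated libraries, 24.8 to 41.5 in wild-type stimulated and 49.1 to 85.4 in Mirc11-/- stimulated ones. The part of the marker shifts in the results below was not tested, and for the vomeronasal sum a fit with it as a covariate was run. In bulk RNA, fewer cells of a type and less RNA per cell cannot be told apart.

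Mitochondrial genes as deposited, with no copies added, took 12.3% to 13.2% of all counts in the wild-type unstimulated libraries. They took 15.2% to 16.4% in the wild-type stimulated, 13.4% to 16.1% in the Mirc11-/- unstimulated and 16.5% to 18.8% in the Mirc11-/- stimulated libraries. The stimulated libraries of each genotype lay above the unstimulated ones. Nearly all of this was rRNA, at 11.1% to 17.1% of the counts per library, while the 13 coding genes with their copies took 1.54% to 2.11%. The 22 tRNA genes together had 4 to 13 counts per library.

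Per length, mt-Rnr2, the RNA of the large mitochondrial ribosomal subunit, was the highest member at 76027 ± 12622 CPM per 1000 bases (SD over 12 libraries), followed by mt-Rnr1 of the small subunit at 17097 ± 5251. The complex IV mRNAs mt-Co1, mt-Co3 and mt-Co2 came next at 4476 ± 558, 3764 ± 421 and 3149.6 ± 302. The ATP synthase mRNA mt-Atp6 stood at 2503 ± 405 and mt-Atp8, which overlaps it, at 1005 ± 178. Among the complex I mRNAs the level per length was 1159.7 ± 141 for mt-Nd1, 640.4 ± 88.2 for mt-Nd3, 388 ± 144 for mt-Nd4, 355 ± 86.7 for mt-Nd2, 333 ± 96.9 for mt-Nd5, 191 ± 58.1 for mt-Nd6 and 115 ± 28.4 for mt-Nd4l. The complex III mRNA mt-Cytb was at 868 ± 95.2. Neighbours from mt-Nd4 to mt-Nd5 in this order lay closer together than the SD of either, and in the wild-type stimulated group mt-Nd2 (252 ± 20.1) stood above mt-Nd4 (246 ± 23.3).

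Library 1 of the stimulated Mirc11-/- group differed from the other 2 libraries of its group in several members. Relative to the mean of libraries 2 and 3 it held 2.24 times as much mt-Nd4, 2.17 times as much mt-Rnr1, 1.80 times as much mt-Nd5, 1.76 times as much mt-Nd6, 1.57 times as much mt-Nd4l and 1.24 times as much mt-Nd2. It held less mt-Nd3, at 0.783 times that mean, and for the remaining 8 members the ratio was 0.92 to 1.03. The 6 members that were high there were picked for a pooled SD within groups of 0.2 or more on the log2 scale, so their departures in single libraries follow in part from that choice. In wild-type unstimulated library 2 they were at 0.594 to 0.725 times the mean of libraries 1 and 3, and the other 9 members at 0.853 to 1.14 times. In the division of the mt-Atp6 pair and in the vomeronasal sum, which at 85.4 CPM was the highest of the 12 libraries, library 1 of the stimulated Mirc11-/- group stood with the stimulated libraries. In the ratio of mt-Rnr2 to mt-Rnr1 counts, at 5.29, it lay within the range of the unstimulated libraries (4.29 to 6.92). Why library 1 departed from its group was not tested. Results that rest on it are given with and without it. It was singled out for these values, so the estimates without it follow in part from that choice.

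**Figure D3:**
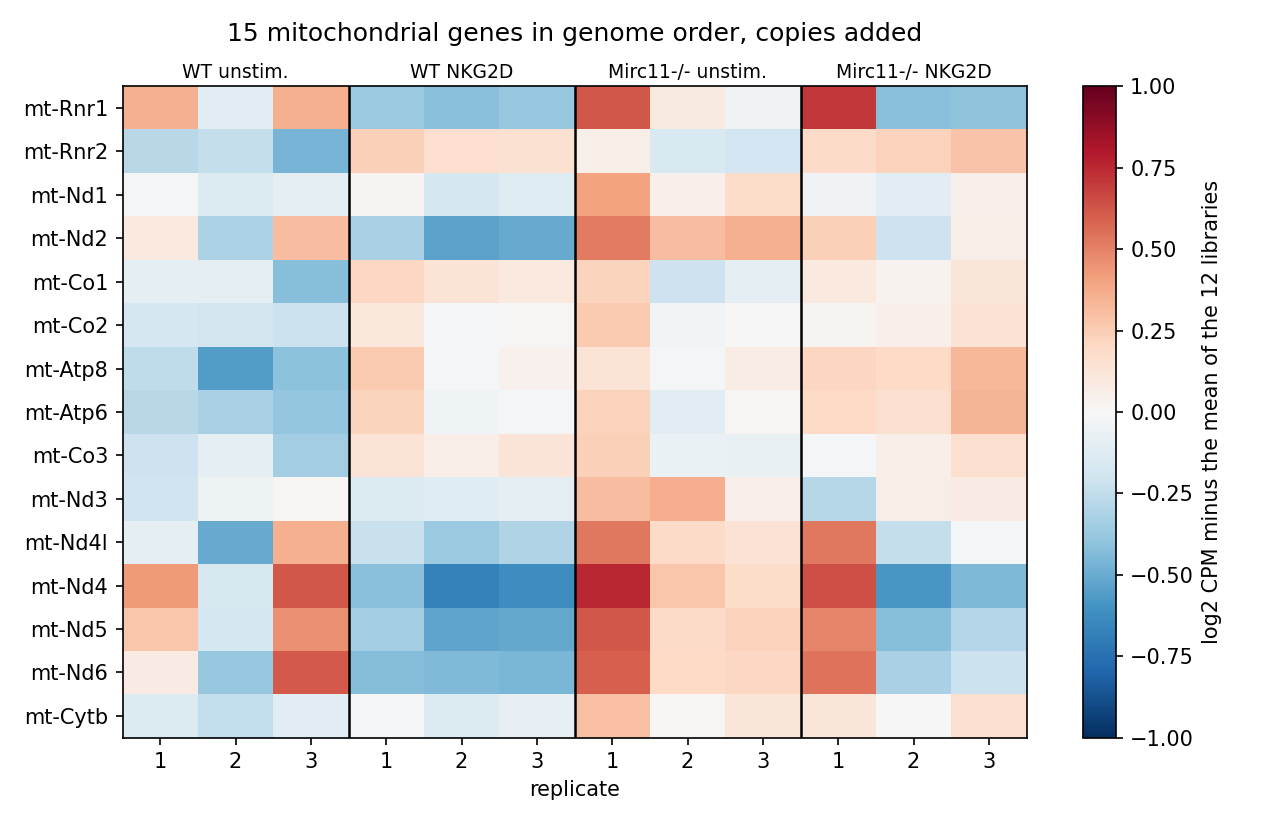
Level of each of 15 members (vertical axis, in genome order) in each of 12 libraries (horizontal axis), as log2 CPM minus the member's mean over the 12 libraries, copies added. mt-Nd4, mt-Nd5, mt-Nd6, mt-Rnr1 and mt-Nd4l are high in library 1 of the stimulated Mirc11-/- group and low in its libraries 2 and 3, while mt-Rnr2 and mt-Atp6 are alike in all 3.

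The first comparison asked how NKG2D stimulation changed these RNAs in wild-type cells, and the 2 rRNAs went in opposite directions. mt-Rnr2 made up 9.84%, 9.69% and 9.16% of the counts in the unstimulated libraries and 13.5%, 12.6% and 12.98% in the stimulated ones. Every stimulated library was above every unstimulated one, and the log2 fold change was 0.51 ± 0.18 (adjusted p = 0.0419, edgeR), a 1.42-fold rise. mt-Rnr1 made up 2.02%, 1.40% and 2.13% in the unstimulated libraries and 1.18%, 1.11% and 1.19% in the stimulated ones. Its groups did not overlap either, but its log2 fold change of -0.60 ± 0.28 was not called (adjusted p = 0.118, edgeR). The ratio of mt-Rnr2 to mt-Rnr1 counts, a quantity within a library that no scaling of the total can move, was 4.88, 6.92 and 4.29 before and 11.5, 11.4 and 10.9 after stimulation. The ratio of both rRNAs to the coding mRNAs moved less, from between 7.05 and 7.21 to between 7.91 and 8.22.

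**Figure D4:**
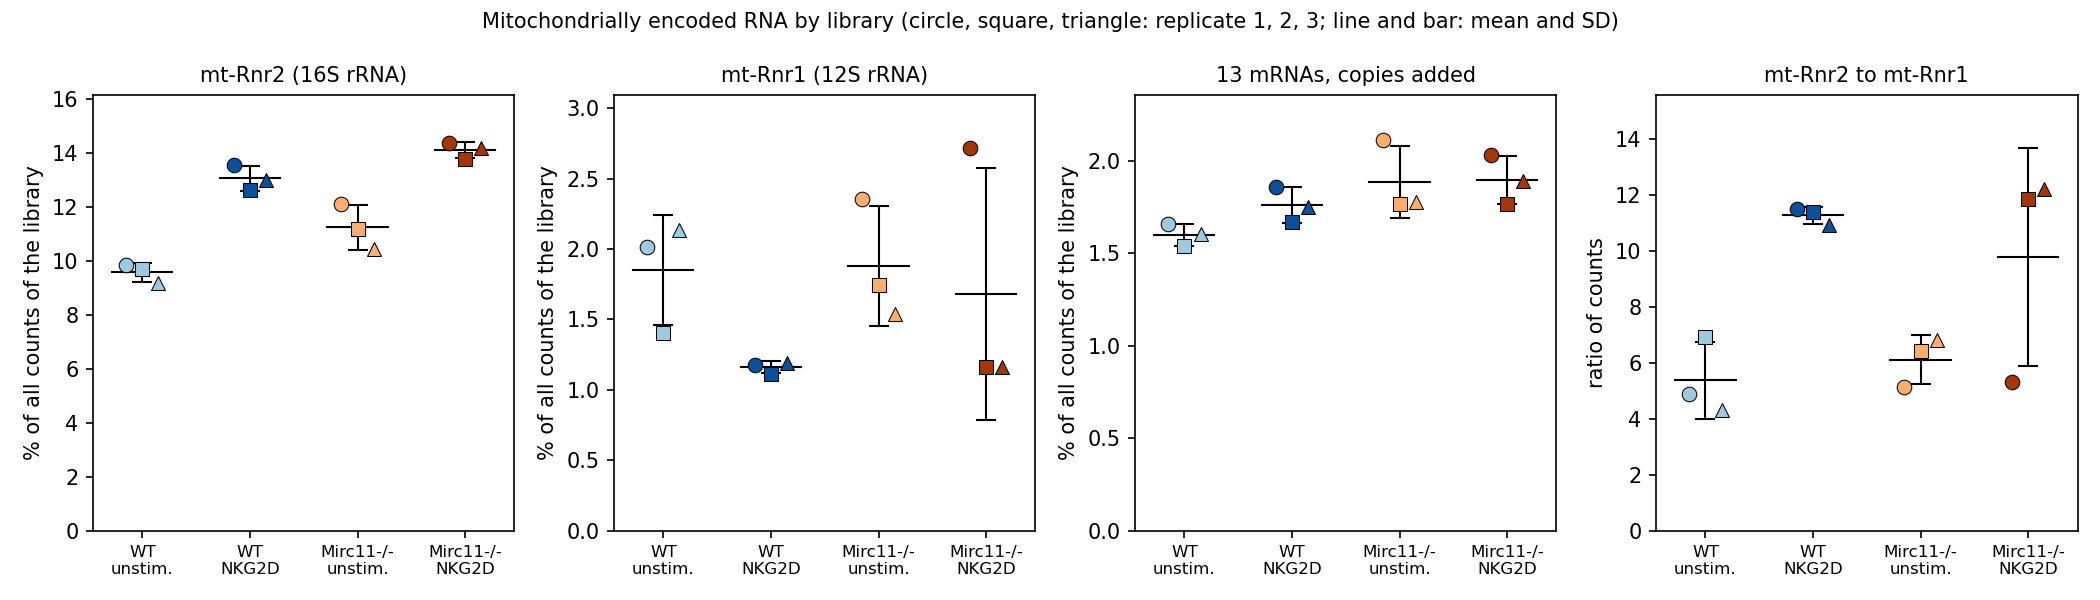
Share of all counts of a library (percent) from mt-Rnr2, mt-Rnr1 and the 13 coding genes with their copies, and the ratio of mt-Rnr2 to mt-Rnr1 counts, by group; points are libraries, lines and bars the mean and SD of 3. The ratio is 4.29 to 6.92 in the 6 unstimulated libraries and 10.9 to 12.2 in 5 of the 6 stimulated ones, with stimulated Mirc11-/- library 1 at 5.29.

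Among the mRNAs of wild-type cells, those of ATP synthase rose and 2 of complex I fell. mt-Atp8 read 169, 137 and 152 CPM unstimulated and 242, 199 and 207 CPM stimulated, a log2 fold change of 0.50 ± 0.10 (adjusted p = 0.00199, edgeR). The mt-Atp6 pair rose with it, by 0.39 as given above. mt-Nd5, a proton-pumping subunit of complex I, read 706, 515 and 802 CPM unstimulated and 461, 404 and 410.4 CPM stimulated, and fell by 0.67 ± 0.23 on the log2 scale (adjusted p = 0.0413, edgeR). mt-Nd2, another such subunit, read 383, 288 and 444 CPM and then 286, 248 and 252 CPM, and fell by 0.50 ± 0.15 (adjusted p = 0.0195, edgeR). No stimulated library reached the lowest unstimulated one for mt-Nd5 or mt-Nd2.

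The remaining complex I mRNAs were not called in wild-type cells. The largest of these estimates was that of mt-Nd4, which read 674, 449 and 772 CPM unstimulated and 375, 314 and 327 CPM stimulated. Its log2 fold change was -0.90 ± 0.32 (adjusted p = 0.0509, edgeR) with the copy added, and -0.93 ± 0.29 (adjusted p = 0.0308, edgeR) as deposited, where it was called. The mt-Nd6 row, whose gene lies on the minus strand, went from 101, 73.1 and 145 CPM to 70.5, 70.1 and 69.2 CPM, a change of -0.61 ± 0.27 (adjusted p = 0.11, edgeR). mt-Nd4l (-0.26), mt-Nd3 (-0.04) and mt-Nd1 (0.00) were nearer to 0. The complex IV mRNAs had positive estimates that were not called, 0.34 ± 0.15 for mt-Co1, 0.32 ± 0.12 for mt-Co3 and 0.22 ± 0.11 for mt-Co2, and mt-Cytb of complex III was at 0.09 ± 0.10.

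In the main fit 5 of the 15 members tested (33.3%) were called in wild-type cells, 3 higher and 2 lower. Of all genes tested a close share was called in that fit, 31.9% (16.1% higher, 15.7% lower). As deposited 6 were called, 3 higher (mt-Rnr2, mt-Atp8, mt-Atp6) and 3 lower (mt-Nd2, mt-Nd4, mt-Nd5), against 31.8% of all genes. With copies added, more members were called by DESeq2, from only the 6 libraries compared and without stimulated Mirc11-/- library 1. Those fits called 32.1%, 36.2% and 38.8% of all genes. The stimulated and unstimulated libraries did not overlap for 11 of 15 members, against 49.0% of all genes. The median log2 fold change was -0.0014 over the members and 0.02 over all genes tested. Of the calls, that of mt-Atp8 held in each of the 12 fits that left out 1 library (adjusted p 0.000700 to 0.0144, edgeR). The mt-Rnr2 call held in only 2 of them, without library 1 and without library 3 of the stimulated Mirc11-/- group (adjusted p 0.00393 to 0.142 over the 12, log2 fold change 0.44 to 0.55). The mt-Atp6 call ended without any 1 wild-type library other than stimulated library 2 (highest adjusted p 0.139). The mt-Nd5 call ended without any 1 wild-type library other than unstimulated library 2 (highest adjusted p 0.142), and also with no composition factor and under both other filters on low counts. The mt-Nd2 call ended without wild-type unstimulated library 1 or 3 or stimulated library 2 or 3 (highest adjusted p 0.0916). A block for the replicate number, whose pairing is not known, left mt-Rnr2 uncalled and mt-Nd4 called, with 32.7% of all genes called. With the vomeronasal sum as a covariate, the estimates became 0.58 for mt-Rnr2 (adjusted p = 0.0871, edgeR), 0.35 for mt-Atp8 (adjusted p = 0.125, edgeR) and 0.30 for mt-Atp6 (adjusted p = 0.275, edgeR). In that fit those of mt-Nd5 (-1.36, adjusted p = 0.0109, edgeR), mt-Nd2 (-0.95, adjusted p = 0.0047, edgeR), mt-Nd4 (-1.82, adjusted p = 0.0187, edgeR) and mt-Rnr1 (-1.29, adjusted p = 0.0458, edgeR) were larger and called. That fit called 22.1% of all genes, against 31.9% without the covariate. The vomeronasal sum was higher in every stimulated library than in any unstimulated one, so the fit can hardly separate it from stimulation.

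The second comparison was the same stimulation in Mirc11-/- cells. mt-Rnr2 made up 12.1%, 11.2% and 10.4% of the counts before and 14.4%, 13.8% and 14.2% after stimulation, with no overlap, and its log2 fold change of 0.33 ± 0.18 was not called (adjusted p = 0.149, edgeR). mt-Rnr1 made up 2.36%, 1.75% and 1.54% before and 2.72%, 1.16% and 1.16% after, and changed by -0.19 ± 0.28 (adjusted p = 0.611, edgeR). Library 1 of the stimulated group was the highest of all 12 for mt-Rnr1 and the other 2 were as low as the wild-type stimulated ones. The ratio of mt-Rnr2 to mt-Rnr1 was 5.13, 6.40 and 6.79 before and 5.29, 11.8 and 12.2 after stimulation.

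Only mt-Nd3, a small complex I subunit, was called in Mirc11-/- cells. It read 273, 285 and 229 CPM unstimulated and 182, 230.5 and 234 CPM stimulated, and its level fell by 0.29 ± 0.11 on the log2 scale (adjusted p = 0.0495, edgeR). The 2 groups overlapped, and library 1 was the lowest of the stimulated libraries. The other complex I mRNAs had negative, uncalled estimates: -0.36 ± 0.15 for mt-Nd2, -0.25 ± 0.11 for mt-Nd1, -0.44 ± 0.31 for mt-Nd4, -0.38 ± 0.23 for mt-Nd5, -0.29 ± 0.27 for mt-Nd6 and -0.17 ± 0.22 for mt-Nd4l. mt-Atp8 and mt-Atp6 were at 0.18 each, mt-Co1 at 0.10, mt-Co3 at 0.03, mt-Co2 at -0.01 and mt-Cytb at -0.05, none of them called. This was 1 member of 15 called (6.67%), against 45.6% of all genes tested in this comparison (23.5% higher, 22.1% lower). As deposited 2 were called, mt-Atp6 higher and mt-Nd3 lower (-0.63 ± 0.18, adjusted p = 0.0148, edgeR), against 45.6% of all genes. The 2 groups did not overlap for 3 members (mt-Rnr2, mt-Nd2 and mt-Atp8), against 54.0% of all genes. The median was -0.17 over the members and 0.03 over all genes.

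Without library 1 of the stimulated group, 5 of 15 members were called in Mirc11-/- cells, against 42.0% of all genes in that fit, and mt-Nd3 was not among them. mt-Rnr2 was higher by 0.35 ± 0.13 (adjusted p = 0.0438, edgeR). mt-Nd4 fell by 0.94 ± 0.24 (adjusted p = 0.0139, edgeR), mt-Nd5 by 0.72 ± 0.18 (adjusted p = 0.0104, edgeR), mt-Rnr1 by 0.66 ± 0.18 (adjusted p = 0.011, edgeR) and mt-Nd2 by 0.46 ± 0.16 (adjusted p = 0.0381, edgeR). Library 1 had been singled out for high values of members that included these, so their lower estimates without it follow from that choice. The p-values of this fit do not allow for it. mt-Nd3 was then at -0.17 ± 0.09 (adjusted p = 0.137, edgeR). In that same fit 9 members were called in wild-type cells, 5 higher and 4 lower, against 38.8% of all genes. The mt-Nd3 call also ended without unstimulated Mirc11-/- library 1 or 2, wild-type unstimulated library 2 or any 1 wild-type stimulated library (highest adjusted p 0.148). It ended as well with DESeq2 size factors, with library totals taken without the mitochondrial chromosome, with the stricter filter and with only the 6 libraries compared (adjusted p 0.0517 to 0.138, edgeR). With the vomeronasal sum as a covariate its sign turned (0.06, adjusted p = 0.936, edgeR), and no member was called. That fit called 3.22% of all genes, against 45.6% without the covariate. Here too the sum was higher in every stimulated library, so the fit can hardly separate it from stimulation.

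**Figure D5:**
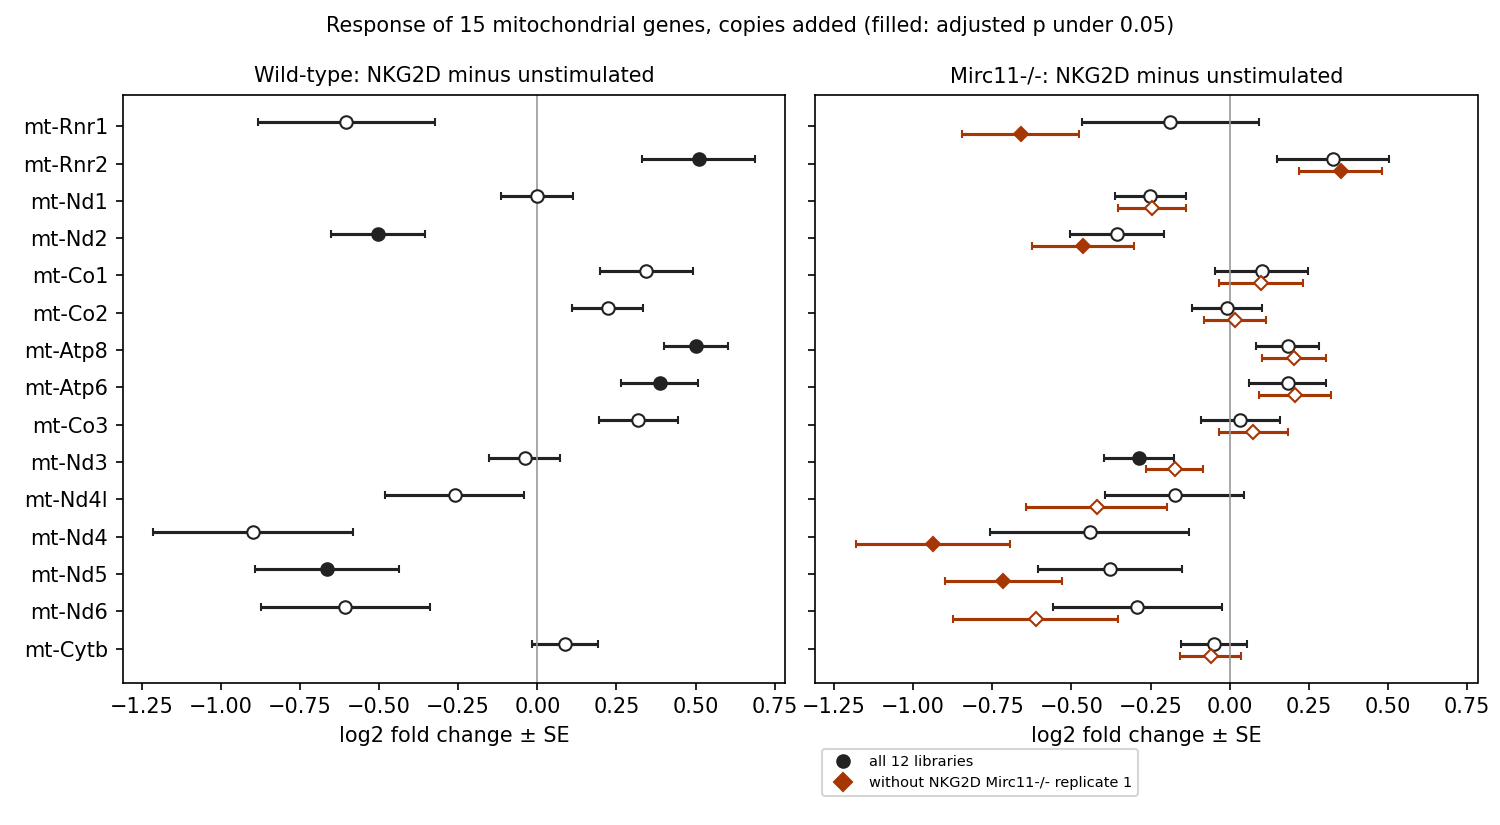
Log2 fold change on NKG2D stimulation (horizontal axis, bars 1 SE) of 15 members in genome order, copies added, in wild-type cells (left) and Mirc11-/- cells (right). Filled symbols passed an adjusted p of 0.05. On the right, diamonds leave out stimulated Mirc11-/- library 1: mt-Rnr1 then moves from -0.19 to -0.66 and mt-Nd4 from -0.44 to -0.94.

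The difference between the 2 responses was tested directly, and no member was called by edgeR (1 had an unadjusted p under 0.05), DESeq2 or limma voom, either as deposited or with the copies added. Over all genes, with copies added, 0.0115% were called by edgeR and by limma voom, and 0.355% by DESeq2. The smallest adjusted p among members was that of mt-Atp8, whose response was 0.32 ± 0.14 smaller in Mirc11-/- than in wild-type cells on the log2 scale (interaction -0.32, adjusted p = 0.461, edgeR). The widest estimates were 0.46 ± 0.44 for mt-Nd4 and 0.42 ± 0.40 for mt-Rnr1, which became -0.03 ± 0.32 and -0.05 ± 0.24 without stimulated Mirc11-/- library 1. A failure to pass does not show that the responses were equal, and the SEs of these estimates ran from 0.14 to 0.44.

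Between genotypes before stimulation, all 15 estimates were positive, and 1 passed. mt-Atp8 read 169, 137 and 152 CPM in wild-type and 221, 199 and 213 CPM in Mirc11-/- cells, with no overlap, and was 0.47 ± 0.10 higher on the log2 scale in Mirc11-/- cells (adjusted p = 0.04, edgeR). The call held in 3 of the 12 fits that left out 1 library. It ended without any 1 unstimulated library of either genotype, without stimulated wild-type library 3, or without stimulated Mirc11-/- library 2 or 3 (highest adjusted p 0.185, log2 fold change 0.40 to 0.55), and also with library totals taken without the mitochondrial chromosome and with no filter on low counts. The mt-Atp6 pair was at 0.38 ± 0.12 (adjusted p = 0.226, edgeR), mt-Nd3 at 0.32 ± 0.11, mt-Cytb at 0.31 ± 0.10, mt-Nd1 at 0.30 ± 0.11 and mt-Co2 at 0.27 ± 0.11, none of them called. mt-Cytb read 899.98, 832 and 914 CPM in wild-type and 1219, 994 and 1071 CPM in Mirc11-/- cells, again with no overlap. mt-Rnr2 was at 0.23 ± 0.18 and mt-Rnr1 at 0.04 ± 0.28. As deposited mt-Atp8 was again the 1 member called. The share called was 1 of 15, against 1.11% of all genes (0.315% higher and 0.797% lower, or 0.309% and 0.796% as deposited), and the 2 genotypes did not overlap for 9 of 15 members against 17.8% of all genes. Library 1 of the Mirc11-/- group was the highest of the 6 unstimulated libraries for 13 of the 15 members, the exceptions being mt-Nd3 and mt-Nd6.

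Between genotypes after stimulation no member was called by edgeR (1 had an unadjusted p under 0.05). Of all genes edgeR called 9.12%, 3.91% higher and 5.21% lower. DESeq2 called 1 member, against 13.4% of all genes, and limma voom none, against 9.28%. As deposited edgeR called no member either, against 9.02% of all genes (3.89% higher, 5.13% lower). With copies added, the share of all genes called was 1.91% without wild-type stimulated library 2, 2.46% without library 3, 5.11% without wild-type unstimulated library 1, 4.11% without stimulated Mirc11-/- library 1, 5.48% and 5.72% without unstimulated Mirc11-/- library 1 and 3, 1.28% with only the 6 libraries compared and 0.172% with the vomeronasal covariate. The member nearest to a call was mt-Nd2. It read 286, 248 and 252 CPM in wild-type and 424, 311 and 374 CPM in Mirc11-/- cells, with no overlap, a difference of 0.50 ± 0.15 (adjusted p = 0.0525, edgeR). By DESeq2 it was called at 0.49 ± 0.15 (adjusted p = 0.0178). Without stimulated Mirc11-/- library 1 it was 0.39 ± 0.16 (adjusted p = 0.202, edgeR). mt-Nd4 (0.55 ± 0.31), mt-Nd6 (0.50 ± 0.27), mt-Rnr1 (0.45 ± 0.28), mt-Nd5 (0.44 ± 0.23) and mt-Nd4l (0.42 ± 0.22) had positive, uncalled estimates, which were 0.05, 0.17, -0.02, 0.10 and 0.17 without that library. The complex IV mRNAs lay near 0, at -0.06 for mt-Co1, 0.04 for mt-Co2 and -0.04 for mt-Co3. The groups did not overlap for 3 of 15 members, against 32.6% of all genes.

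Of the 22 tRNA genes, 13 had 0 counts in all 12 libraries. mt-Ts1, a serine tRNA gene, had the most at 29 counts in 11 libraries, followed by mt-Tl1, a leucine tRNA gene, with 25 in 11 libraries and mt-Te, the glutamate tRNA gene, with 19 in 9. mt-Tm and mt-Tn had 3 counts each, mt-Tq and mt-Ta 2 each, and mt-Ty and mt-Tp 1 each. No tRNA gene exceeded 6 counts in a library, so differences between groups could not be assessed in these poly(A) libraries.

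The nuclear genes that make and keep mitochondrial RNA were followed as 6 lists of 76 genes in all. The lists were chosen with earlier results of these data in view. Of all genes tested, 16.1% rose and 15.7% fell in wild-type cells and 23.5% rose and 22.1% fell in Mirc11-/- cells, and the counts below are to be read against these shares. Of 8 tested genes for the stability and decay of mitochondrial RNA, 4 fell and none rose in wild-type cells, and 5 fell and none rose in Mirc11-/- cells. Rexo2, an exonuclease that clears short RNA fragments, fell by 0.52 ± 0.11 (adjusted p = 0.00358, edgeR) and 0.81 ± 0.12 (adjusted p = 9.98e-05, edgeR), and Lrpprc, which stabilises mitochondrial mRNAs, fell by 0.30 ± 0.08 in wild-type cells (adjusted p = 0.0127, edgeR). Of 16 tested genes for RNA processing, 1 rose and 6 fell in wild-type and 1 rose and 9 fell in Mirc11-/- cells. Tbrg4, a FASTK family protein, fell by 0.67 ± 0.11 and 0.87 ± 0.11 (adjusted p = 0.000465 and 4.15e-05, edgeR). Between genotypes before stimulation 1.11% of all genes were called. Of the 76 listed genes 1 was called, a share near that, namely Elac2, the enzyme that cuts the 3′ ends of tRNAs. It was lower in Mirc11-/- cells, by 0.55 ± 0.12 before (adjusted p = 0.0451, edgeR) and 0.85 ± 0.12 after stimulation (adjusted p = 0.00193, edgeR), with 85.4 ± 6.3 and 58.2 ± 6.4 CPM (SD, n = 3) before and 70.7 ± 6.4 and 39.3 ± 6.5 CPM after.

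Of 11 transcription genes, 1 rose and 1 fell in wild-type cells, a smaller share than the 31.9% of all genes called there, and 1 rose and 5 fell in Mirc11-/- cells, where 45.6% of all genes were called. Tfb2m, a transcription factor of mitochondrial RNA polymerase, fell by 0.44 ± 0.13 (adjusted p = 0.0172, edgeR) in wild-type and 0.85 ± 0.13 (adjusted p = 0.000174, edgeR) in Mirc11-/- cells. Tfam, which packages mitochondrial DNA and starts its transcription, fell by 0.57 ± 0.11 in Mirc11-/- cells (adjusted p = 0.000976, edgeR). Of 12 genes for replication of mitochondrial DNA, 1 rose and 3 fell in wild-type and 1 rose and 6 fell in Mirc11-/- cells. Of 11 regulators of mitochondrial biogenesis, 1 rose and 4 fell in wild-type and 6 fell in Mirc11-/- cells. Pprc1, a coactivator of the PGC-1 family, fell by 1.40 ± 0.21 and 1.55 ± 0.21 (adjusted p = 0.000405 and 0.000136, edgeR), and Myc, a transcription factor of growing cells, by 1.04 ± 0.14 and 1.68 ± 0.14 (adjusted p = 8.15e-05 and 1.12e-06, edgeR). Besides Elac2, Myc was the only listed gene called between genotypes after stimulation, where 9.12% of all genes were called. Myc was lower in Mirc11-/- cells by 0.66 ± 0.14 (adjusted p = 0.0142, edgeR). Of 17 genes that modify rRNA and tRNA, 4 rose and 2 fell in wild-type and 3 rose and 5 fell in Mirc11-/- cells. Nsun4, which methylates the small-subunit rRNA mt-Rnr1 encodes, rose by 0.58 ± 0.09 (adjusted p = 0.000333, edgeR) and 0.82 ± 0.09 (adjusted p = 1.56e-05, edgeR). No gene of the 6 lists passed the test of the difference between the 2 responses, in which 0.0115% of all genes passed.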

How the data were processed

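Whole-number expected counts per gene were deposited for 12 poly(A) RNA libraries (TRIzol extraction, Illumina TruSeq RNA, per the labels). The submitters' processing notes list RSEM 1.3.0 and Bowtie2 2.2.8 besides bcl2fastq and Trim Galore 0.4.1, and name GRCm38 as the build. The strand setting and the annotation release are not given in the sources used here. RSEM shares out reads that fit several transcripts, so counts of near-identical genes depend on that estimate. Positions and transcript sequences came from GENCODE vM21, in which all 37 members were found. Copies were nuclear transcripts with over 95% of their 31-base words in 1 mitochondrial transcript and over 50 counts, and adding them to their genes was chosen after seeing the data.

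Counts were fitted over all 12 libraries with 1 mean per group (R 4.3.3, edgeR 4.0.16: filterByExpr, TMM, robust quasi-likelihood), with Benjamini-Hochberg adjustment over all genes tested. DESeq2 1.42.0, limma 3.58.1 (voom), other scalings and filters, a vomeronasal-receptor covariate, a replicate block, summed overlapping genes and single-library omissions were alternatives. The fit was also run on simulated counts in which all genes had the same spread setting. That run does not cover members with a wider spread or a library that departs from its group. With 3 libraries per group, the edgeR p-values set a difference of group means against the spread between libraries, estimated in part across genes. Whether that spread is between animals is not known, since the labels do not say whether cells were pooled. Summed shares had no test.

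All members and all 7 copies were named (the rule took 4 copies, and Gm28439, Gm10222 and Gm28437 were added after their values were seen); of each nuclear list, up to 3 genes past the threshold with the smallest p per comparison, or 1 gene where none passed, and the text prints only part of these. Members and lists were chosen with earlier results of these data known.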

Additional observations from a re-analysis of the deposited data

How the results depend on the processing

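Counts of members called are given as deposited and then with copies added. Shares of all genes called are for the same fits, with copies added unless marked as deposited. For stimulation of wild-type cells (6 and 5) the counts were 2 to 8 and 1 to 9 when 1 library was left out. The share of all genes then ran from 21.5% to 38.8%. With copies added, 10 members were called by DESeq2 and 9 from only the 6 libraries compared, against 32.1% and 36.2% of all genes. For stimulation of Mirc11-/- cells (2 and 1) leaving out 1 library gave 1 to 6 and 0 to 5 (36.9% to 45.8% of all genes). There, as deposited, no filter gave 4, DESeq2 5, limma voom 4 and the vomeronasal covariate 0. As deposited these fits called 26.4%, 44.6%, 45.2% and 3.21% of all genes. With copies added, DESeq2 size factors, totals without the mitochondrial chromosome, only the 6 libraries and the covariate each gave 0. Their shares of all genes were 45.6%, 45.2%, 39.8% and 3.22%. No composition factor, the stricter filter and limma voom each gave 2 (44.8%, 49.9% and 45.2% of all genes). No filter gave 3 (26.4%) and DESeq2 4 (44.6%). Between genotypes unstimulated (1 and 1), totals without the mitochondrial chromosome, no filter and summed overlapping genes each gave 0 (1.13%, 0.626% and 1.11% of all genes). DESeq2 gave 2 and 3 (2.19% of all genes), and leaving out 1 library gave 0 to 1 (0.387% to 2.26%). Between genotypes stimulated (0 and 0), no filter, the stricter filter and DESeq2 each gave 1 (5.27%, 11.2% and 13.4% of all genes). Leaving out 1 library gave 0 to 1 (1.91% to 13.2%). No member was called for the difference of responses under any alternative run, where at most 0.355% of all genes were (DESeq2). Same-numbered libraries correlated at -0.18 to 0.23 over all pairs of groups, and the main fit did not take the numbers as pairs. Between the wild-type groups every same-numbered pair (0.09 to 0.23) correlated more than any differently numbered one (-0.17 to 0.03). Whether the numbers mark pairs there is not known. A replicate block gave 4 and 2 calls for stimulated Mirc11-/- cells (5 and 3 as a block within genotype) and 1 and 1 between genotypes stimulated, and the other counts stayed within 1.5 times. Of all genes it called 46.2% (47.7% within genotype) for stimulated Mirc11-/- cells and 12.4% between genotypes stimulated. With copies added, the wild-type calls then were not the same members: mt-Rnr2 was not called (0.51, adjusted p = 0.0587, edgeR, and 0.0649 as a block within genotype), while mt-Nd4 was (adjusted p = 0.0123 and 0.00262, edgeR). The mt-Nd3 response of Mirc11-/- cells turned from -0.29 to 0.057 with the covariate. As deposited, with no copies added, the mitochondrial share per 100 nuclear coding counts was 18.0 and 23.8 in wild-type unstimulated and stimulated cells. It was 21.3 and 27.4 in Mirc11-/- unstimulated and stimulated cells. The shares of all counts were 12.7%, 15.7%, 14.6% and 17.4% in the same order. The causes of these shifts were not tested. The fit of only 6 libraries was not run for the difference of responses, nor the block within genotype between genotypes.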
